A study of Mus musculus with 10 samples.

Results

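The genes described are the heat shock proteins and J-domain co-chaperones that work mainly in the cytosol. They were chosen by name, as protein-coding genes whose GRCm38 symbol begins with Hspa, Hspb, Hspd, Hspe, Hsph, Hsp90 or Dnaj. The 7 chaperones of the endoplasmic reticulum Hspa5, Hspa13, Hsp90b1, Dnajb9, Dnajb11, Dnajc3 and Dnajc10 were left out. Of the 14450 genes in the table, 53 met this rule. Another 14 annotated genes of these names, Hspa1a and Hspb1 among them, are not among the 14450. The 53 are 2 HSP90 genes, 7 HSP70 genes, 3 HSP110 genes, 3 mitochondrial chaperones, 34 J-domain genes (4 of class A, 8 of class B and 22 of class C) and 4 genes that begin with Hspb. The name rule is wider than the cytosol. Among others, Hspa9, Hspd1, Hspe1, Dnaja3 and Dnajc19 act in mitochondria, and Dnajb12 and Dnajb14 sit in the endoplasmic reticulum membrane. Hspbp1 and Hspbap1 are partners rather than heat shock proteins.

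RNA was sequenced from mature B cells of the bone marrow of Chat-GFP mice at steady state, in 5 libraries of Chat+ cells and 5 libraries of Chat- cells separated by flow cytometry. Chat encodes choline acetyltransferase, which makes acetylcholine, and green fluorescence reports use of its regulatory sequence, so the groups are defined by the reporter and not by the enzyme. Both groups come from the reporter strain, and the labels give neither age nor sex nor whether libraries came from separate animals. The p-values therefore speak only to variation among the libraries at hand, which may be technical. The question is how far chaperone transcripts set apart B cells with and without the reporter's fluorescence.

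Levels are CPM, the counts of a gene per 1000000 counts of its library. Depth, estimated from the steps between low values and counted in units of 1000000 reads, was 21.53 in Chat- replicate 4 and up to 30.06 in the other libraries. The 8 B cell markers were measured in all libraries, with summed levels of 10045 to 10534 CPM in Chat+ and 10299 to 10899.9 CPM in Chat-. Of 8 T and NK cell markers 1 was measured, Cd4, at no more than 1.27 CPM. Summed plasma cell markers were 144, 262 and 317 CPM in Chat+ replicates 1, 2 and 5, and 98.6 to 133 CPM in Chat-. Chat+ replicates 3 and 4 had 102 and 126 CPM. Among these markers Jchain had 15.1 to 213 CPM in Chat+ against 10.1 to 35.8 in Chat-, while Sdc1 had 9.42 to 13.9 against 9.34 to 15.3. Derl3 had 2.94 to 6.88 CPM in Chat+ against 0 to 2.29 in Chat-, without overlap, as for 1.12% of all genes. For Xbp1 and Prdm1 the groups overlapped. Their part in the chaperone levels was not tested. Chat- replicate 4 stood apart, where 1213 genes sat at the floor of the table (62 to 682 in the others) and 11.87% of transcripts were mitochondrial (2.27% to 3.85% in the others). Its summed monocyte and macrophage markers were 208 CPM against 38.9 to 109 CPM elsewhere. Chat+ replicates 3 and 5 came next, with 682 and 458 genes at the floor.

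HSP70 proteins bind unfolded stretches of protein and let them go in a cycle driven by ATP. J-domain proteins bring clients to HSP70 and start the cycle, HSP110 proteins release the nucleotide, and HSP90 acts later, on kinases, receptors and other nearly folded clients. Some of these genes are made at all times, while others are switched on by heat shock factor 1, which binds heat shock elements, inverted repeats of the letters GAA and TTC upstream of the start. In sorted cells the inducible genes are also known to respond to handling.

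The elements were searched in the 250 bases before each RefSeq start (GRCm38.p6), where 43 of the 53 genes had a window. The words GAANNTTC and TTCNNGAA, which read alike on both strands and can overlap each other, were in 10 of these 43 genes. By window, 12 of the 59 windows of these genes held one, beside 12.8% of all 32851 windows. The 3-unit words TTCNNGAANNTTC or GAANNTTCNNGAA, each the reverse complement of the other, were in 4 of the 59 windows, those of Hspd1, Hspe1 and Dnajb6, beside 0.466% of all windows. Hspd1 and Hspe1 lie head to head and share this element, which is counted in a window of each. For Hspd1 it lies in the window of bases 55087933 to 55088182, not in that of bases 55088244 to 55088493. The window of Hspa1b is shown in full, a choice made from its values. Its Chat+ libraries lay above the Chat- libraries once Chat- replicate 4 was left out, as for 2.35% of all genes. Sites of 30 bases are shown for 5 other genes that the results turn on or that carry the longer words. Capitals mark the matches, and each sequence runs in the direction of its gene.
Hspa1b: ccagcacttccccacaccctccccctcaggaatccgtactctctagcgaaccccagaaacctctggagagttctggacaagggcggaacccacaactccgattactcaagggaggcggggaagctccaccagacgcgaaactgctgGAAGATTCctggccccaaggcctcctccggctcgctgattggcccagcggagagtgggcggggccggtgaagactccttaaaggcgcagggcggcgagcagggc
Hsph1: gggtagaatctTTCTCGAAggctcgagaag
Dnaja1: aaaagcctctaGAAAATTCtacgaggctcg
Hspe1: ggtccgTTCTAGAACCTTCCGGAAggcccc
Dnaja4: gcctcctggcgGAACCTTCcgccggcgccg
Dnajb6: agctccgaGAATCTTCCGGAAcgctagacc
The Hspa1b window is chr17:34959239-34959488 on the minus strand, and its match begins 104 bases before the start. The sites are chr5:149636351-149636380 on the minus strand for Hsph1, chr4:40722333-40722362 on the plus strand for Dnaja1, chr1:55088053-55088082 on the plus strand for Hspe1, chr9:54699496-54699525 on the plus strand for Dnaja4 and chr5:29735844-29735873 on the plus strand for Dnajb6. A match describes the letters and does not show binding.

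Hspa8 and Hsp90ab1, the constitutive cytosolic HSP70 and HSP90, were the most abundant of the 53 genes. Per kilobase of the longest coding transcript, the mean level was 684 ± 103 CPM for Hspa8 and 543 ± 73.9 CPM for Hsp90ab1 (SD, n = 10 libraries). They held 25.1% and 20.9% of the summed CPM of the 53. Dnajc7, whose protein has binding sites for both HSP70 and HSP90, followed with 187 ± 46.5 CPM per kilobase, then Hsp90aa1 with 132 ± 20.4 and Hspe1 with 101 ± 17.0. Among these 5, neighbours in the order overlapped within 1 SD of their means except Hsp90ab1 and Dnajc7. Further down, Dnajc21 and Dnajc13, and Dnajb14 and Hspa4l, were the neighbours that did not. At the low end, Hspa12b, Dnajb13 and Hspa1l had 0.146 ± 0.130, 0.207 ± 0.197 and 0.317 ± 0.340 CPM per kilobase.

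**Figure D1:**
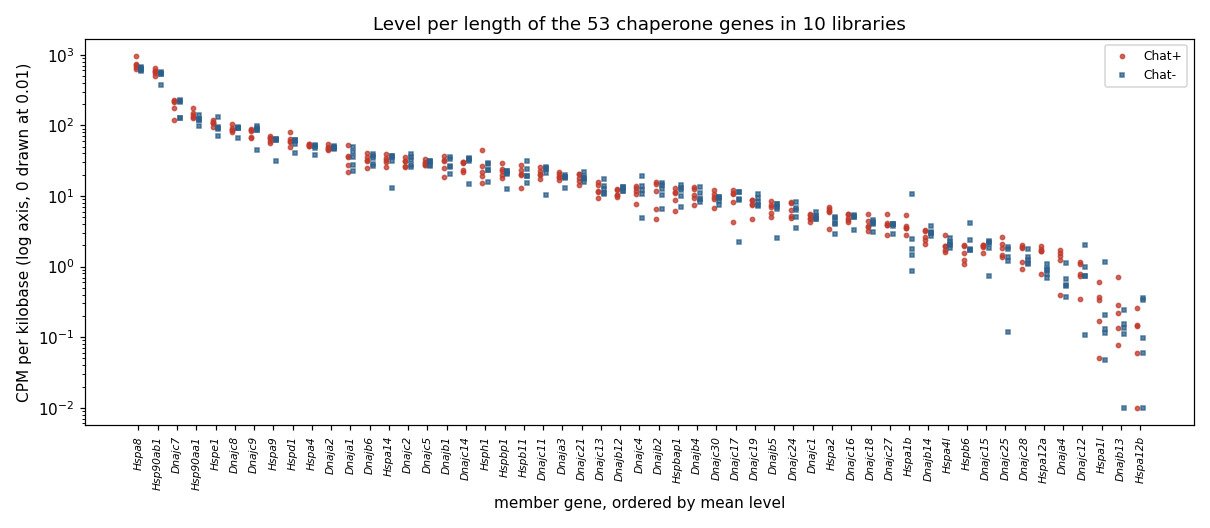
Level per length of each of the 53 genes (CPM per kilobase, log axis) in the 5 Chat+ libraries (circles) and the 5 Chat- libraries (squares), ordered by the mean over 10 libraries; a level of 0 is drawn at 0.01. Hspa8 and Hsp90ab1 lead the order, and the groups overlap at every gene.

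Between Chat+ and Chat- cells, none of the 53 genes passed the test over all genes (limma, adjusted p of 0.93 or more for each), where 0.00692% of all genes were called. At an unadjusted p under 0.05, 2 of the 53 were higher in Chat+, Hspa12a and Hsp90aa1, against 3.49% of all genes, and 0 were lower, against 1.01%. For 0 of the 53 did all Chat+ libraries lie above all Chat- libraries, against 1.12% of all genes, and for 0 did they lie below, against 0.304%. The estimated difference was above 0 for 35 and below 0 for 18, with 57% of all genes above 0, and with median-of-ratios scaling it was above 0 for 29 and below for 24. The median log2 fold change was 0.06, beside 0.04 over all genes. Without Chat- replicate 4 the median was -0.0004 and the split 26 above to 27 below, and 4 of the 53 were higher at an unadjusted p under 0.05 (5.36% of all genes) and 1 lower (1.97%). With library quality weights 5 were higher (6.28% of all genes) and 1 lower (2.79%). Without Chat- replicate 4 and Chat+ replicates 3 and 5, 4 were higher (5.13% of all genes) and 0 lower (2.13%). In bulk RNA, fewer cells with a transcript and less of it per cell cannot be told apart.

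**Figure D2:**
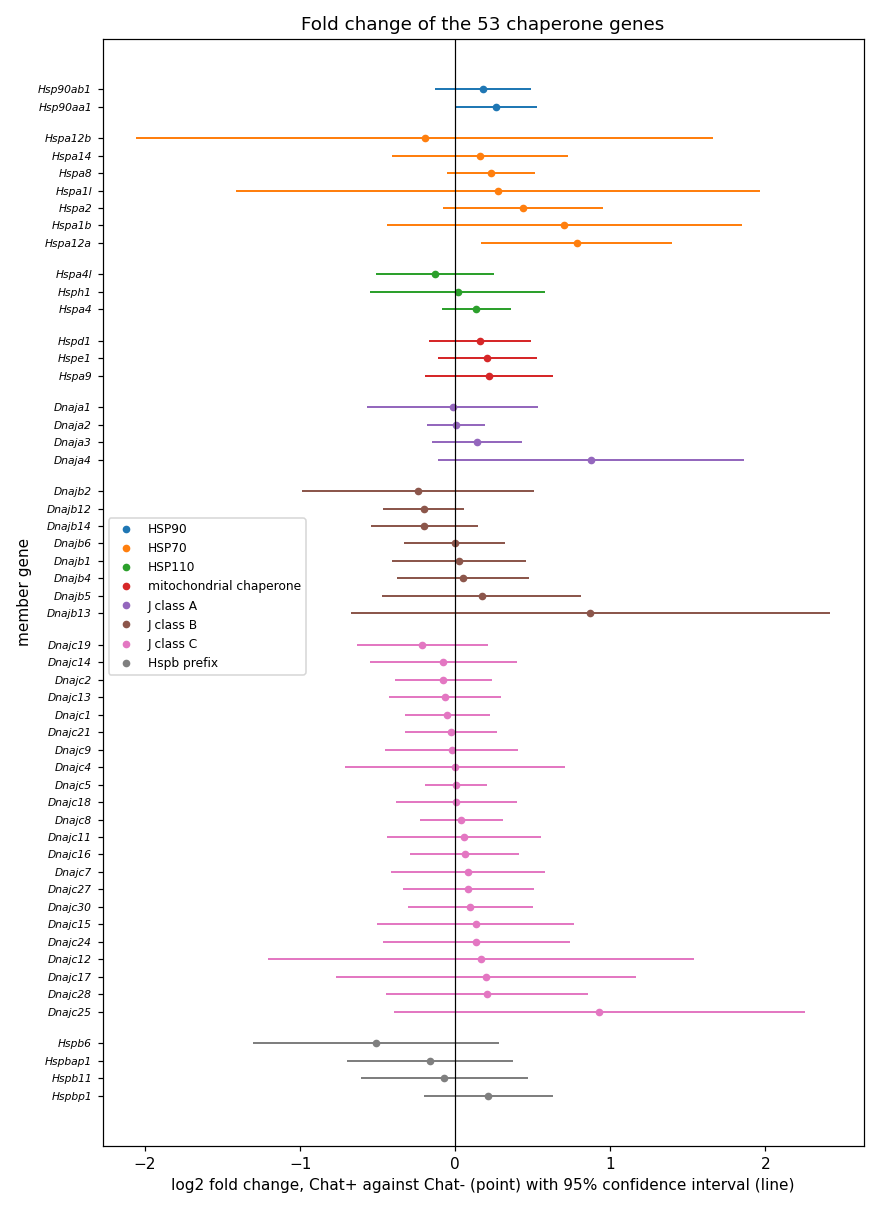
Log2 fold change of Chat+ against Chat- (points) with 95% confidence intervals (lines) for the 53 genes, grouped by family. The interval leaves out 0 for Hspa12a and Hsp90aa1, before any adjustment over genes.

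Among the HSP70 genes, Hspa12a had the smallest p. It encodes a distant, atypical relative of HSP70 and is read from the minus strand of chromosome 19, between bases 58795750 and 58943654 of GRCm38. Its level was 9.51, 11.2, 9.46, 10.2 and 4.57 CPM in Chat+ replicates 1 to 5 and 3.90, 5.11, 5.25, 6.32 and 4.49 CPM in Chat- replicates 1 to 5. Of the Chat+ libraries, 4 lay above every Chat- library, and replicate 5 lay inside the Chat- range. The fold difference was 1.72 (95% confidence interval 1.13 to 2.62), with a log2 fold change of 0.78 ± 0.28 (SE). Over all genes it did not pass (limma, adjusted p = 0.93). With library quality weights, which count a deviating library less, it passed (log2 fold change 0.97 ± 0.20, SE, adjusted p = 0.042), as did 0.727% of all genes. Over the 17 alternatives its adjusted p lay between 0.042 and 0.99996, and without Chat+ replicate 5 it was 0.26. The gene shares none of its 31-base words with other transcripts.

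Hspa1b, the heat-inducible HSP70 that stays low in unstressed cells, separated the groups except for 1 library. It had 10.6, 7.92, 15.1, 9.85 and 9.83 CPM in Chat+ replicates 1 to 5, and 5.01, 4.12, 6.89, 29.4 and 2.43 CPM in Chat- replicates 1 to 5. Chat- replicate 4 was the highest of all libraries, and the other 4 Chat- libraries lay below every Chat+ library. With all libraries the log2 fold change was 0.70 ± 0.52 (SE; limma, adjusted p = 0.999). Without Chat- replicate 4 it was 1.25 ± 0.30 (SE; limma, adjusted p = 0.19). Hspa1b was then the 1 gene of the 53 with all Chat+ libraries above all Chat- libraries, against 2.35% of all genes. The monocyte and macrophage markers stand beside this: their sum was 56.2 to 109 CPM over Chat+ libraries and 38.9 to 56.8 CPM in the other Chat- libraries, and 208 CPM in Chat- replicate 4, which was also high in the collagen gene Col1a1 (111 CPM against 7.59 to 42.4 CPM elsewhere). Their part in the level of Hspa1b was not tested.

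The source of the Hspa1b reads is uncertain as well. Of its 31-base words, 67.6% also occur in Hspa1a, its near-identical neighbour on chromosome 17, so reads of the pair can be assigned to either gene. Hspa1a has no values here, so its level cannot be set beside that of Hspa1b. Hspa1b occupies bases 34956436 to 34959238 of chromosome 17, on the minus strand. Hspa1l, the next gene of that cluster, is mainly known from testis and had 0.117 to 1.48 CPM in 9 libraries and 2.85 CPM in Chat- replicate 4.

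Hspa2, another HSP70 best known from testis, had 14.8, 17.4, 16.6, 15.7 and 8.64 CPM in Chat+ replicates 1 to 5 and 12.5, 12.9, 10.5, 7.34 and 10.2 CPM in Chat- replicates 1 to 5. As for Hspa12a, 4 Chat+ libraries lay above all Chat- libraries and Chat+ replicate 5 did not. The log2 fold change was 0.44 ± 0.24 (SE; limma, adjusted p = 0.999). Without Chat+ replicate 5 it was 0.61 (limma, adjusted p = 0.783).

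Hspa8 had 1520.3, 1609.5, 1785, 2259.8 and 1708 CPM in Chat+ replicates 1 to 5 and 1484, 1594, 1574, 1407 and 1446 CPM in Chat- replicates 1 to 5. Chat+ replicate 4 was the highest, 3 more Chat+ libraries lay above the Chat- range and Chat+ replicate 1 lay inside it. The fold difference was 1.17 (95% confidence interval 0.97 to 1.42) and did not pass (limma, adjusted p = 0.999). Hspa14 pairs with the J-domain protein Dnajc2 at the ribosome, where they meet new chains. Hspa14 had 58.1 ± 9.05 CPM in Chat+ against 55.0 ± 18.2 in Chat-, and Dnajc2 had 72.9 ± 9.79 against 77.4 ± 14.0 CPM (SD, n = 5). Both differences were within these spreads. Hspa12b, at 0 to 1.22 CPM, was too low to compare.

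Of the HSP90 genes, the inducible Hsp90aa1 had the lowest p. It had 486, 458, 423, 572 and 421 CPM in Chat+ replicates 1 to 5 and 456, 399, 395, 395 and 320.1 CPM in Chat- replicates 1 to 5. The groups overlapped through Chat- replicate 1, which lay above 2 Chat+ libraries. The fold difference was 1.20 (95% confidence interval 1.005 to 1.44; limma, adjusted p = 0.999). The log2 fold change was 0.26 ± 0.12 (SE), and it lay between 0.19 and 0.32 when single libraries were left out, lowest without Chat+ replicate 4 or Chat- replicate 5. Hsp90ab1, made at all times, had 1239 to 1631 CPM over Chat+ libraries and 1342 to 1443 CPM in 4 Chat- libraries, with 929.7 CPM in Chat- replicate 4. Its log2 fold change of 0.18 became 0.07 without that library. Of the 31-base words of Hsp90aa1, 51.4% occur in other genes, mostly the copy Gm12346, listed at 4.48 to 40.6 CPM.

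The HSP110 gene Hsph1 and the class A J-domain gene Dnaja1 held the same order of replicate numbers in both groups. Dnaja1 helps HSP70 with newly made proteins and is raised by heat. Its level was 156, 203, 209.7, 299 and 121 CPM in Chat+ replicates 1 to 5 and 152, 203, 234, 277 and 127 CPM in Chat- replicates 1 to 5. In both groups replicate 5 was lowest, followed by 1, 2, 3 and 4. The group means hardly differed, 198 ± 67.2 CPM in Chat+ against 199 ± 60.6 CPM in Chat- (SD, n = 5), with a 95% confidence interval of 0.68 to 1.44 for the fold.

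Hsph1 had 83.1, 72.5, 99.3, 170.1 and 58.3 CPM in Chat+ replicates 1 to 5 and 89.3, 88.8, 107, 111 and 59.8 CPM in Chat- replicates 1 to 5. Here too both groups held the same order of numbers, from 5 through 2, 1 and 3 to 4. An order shared by the groups from lowest to highest was seen for 2 of the 53 genes, Dnaja1 and Hsph1, and for 1.07% of all genes. The same number at the top and the same at the bottom was seen for 4, Dnaja1, Hsph1, Dnajc7 and Dnajc28, and for 6.07% of all genes. These counts were made after the values had been seen. The labels do not say that equal numbers mark the same animal or day. The log2 fold change of Hsph1 was 0.02 ± 0.26 (SE), and it was -0.03 with median-of-ratios scaling.

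Dnajb1, the main inducible J-domain partner of HSP70, did not repeat the order. It had 55.8, 98.2, 94.0, 110.2 and 75.7 CPM in Chat+ replicates 1 to 5 and 60.6, 105, 101, 77.5 and 79.5 CPM in Chat- replicates 1 to 5. Replicate 1 was lowest in both groups, and the log2 fold change was 0.02 ± 0.20 (SE). The other HSP110 genes were steadier. Hspa4 had 233 to 250.4 CPM over Chat+ libraries and 221 to 241 CPM in Chat- apart from 175 CPM in Chat- replicate 4, and Hspa4l had 15.3 to 26.1 against 17.4 to 24.1 CPM.

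**Figure D3:**
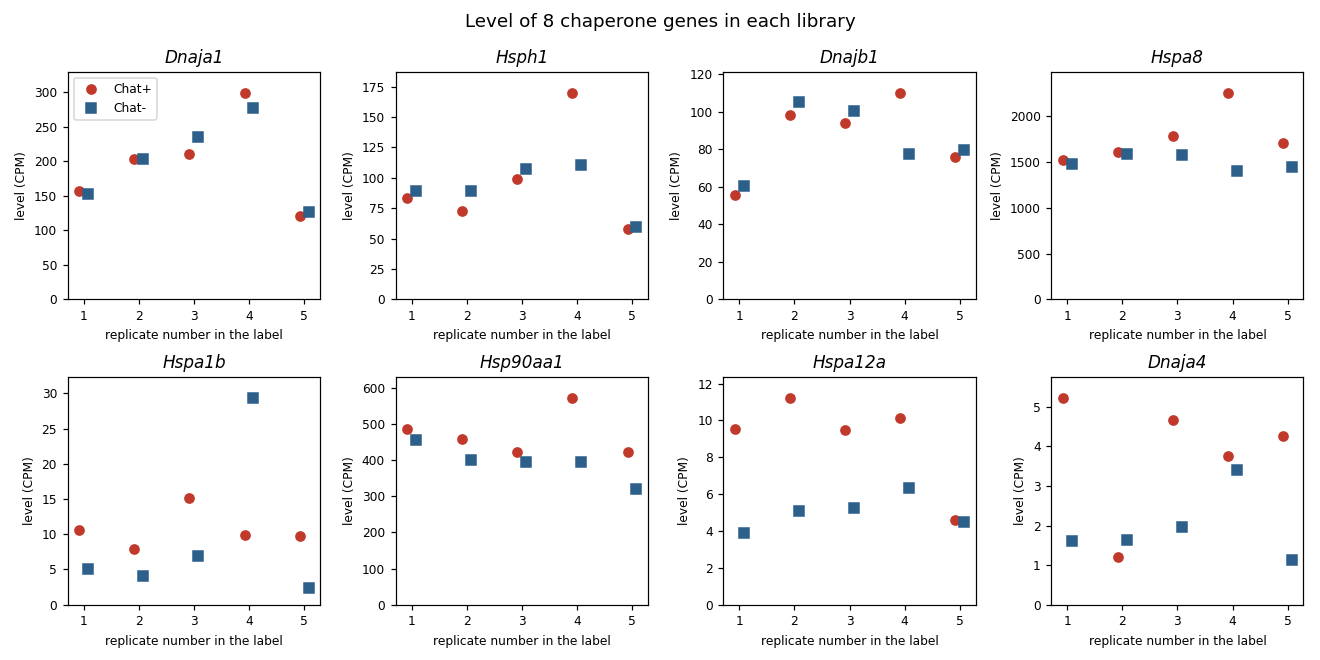
Level (CPM) of 8 chaperone genes in each Chat+ library (circles) and Chat- library (squares), by the replicate number in the label. Dnaja1 and Hsph1 hold the same order of numbers in both groups, Hspa1b is highest in Chat- replicate 4, and Hspa12a in Chat+ replicate 5 lies in the Chat- range.

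Dnaja4, a class A J-domain gene with 2 of the 8-base words in its window, was low. It had 5.23, 1.21, 4.66, 3.75 and 4.26 CPM in Chat+ replicates 1 to 5 and 1.62, 1.62, 1.97, 3.39 and 1.13 CPM in Chat- replicates 1 to 5. All Chat+ libraries but replicate 2 lay above all Chat- libraries. The log2 fold change was 0.88 ± 0.45 (SE; limma, adjusted p = 0.999), and without Chat+ replicate 2 it was 1.23 ± 0.375 (SE; limma, adjusted p = 0.927). Dnaja2, the constitutive gene of the class, was among the steadiest, with 141 ± 10.6 CPM in Chat+ against 141 ± 5.12 in Chat- (SD, n = 5), and a fold between 0.89 and 1.14 at 95% confidence. Dnaja3, its mitochondrial relative, had 50.9 ± 4.90 against 46.5 ± 7.04 CPM.

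Class B was split evenly, with 4 of 8 genes above 0 and 4 below, and a median log2 fold change of 0.01. The lowest p were on the lower side. Dnajb12, which helps degrade membrane proteins of the endoplasmic reticulum, had 37.8, 39.0, 31.3, 30.1 and 31.4 CPM in Chat+ replicates 1 to 5 and 35.6, 41.6, 39.3, 36.6 and 41.4 CPM in Chat- replicates 1 to 5. Its 3 lowest Chat+ libraries lay below all Chat- libraries (log2 fold change -0.20 ± 0.12, SE; limma, adjusted p = 0.999). Its relative Dnajb14 had 25.8 ± 4.74 against 29.4 ± 3.95 CPM (SD, n = 5; log2 fold change -0.20). Dnajb6, a suppressor of protein aggregation whose window holds a 3-unit element, had 96.3 ± 17.0 against 96.3 ± 15.7 CPM.

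Dnajb2 tracked the libraries that stood apart rather than the groups. It had 14.3 and 19.97 CPM in Chat+ replicates 5 and 3 and 20.3 CPM in Chat- replicate 4, against 31.4 to 48.7 CPM in the other libraries. Its log2 fold change was -0.24 with all libraries and 0.10 without these 3. Dnajb13, a protein of cilia and sperm tails, had at most 1.86 CPM.

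Class C, the mixed class that shares only the J domain, had a median log2 fold change of 0.05, with 14 of 22 genes above 0. Dnajc7 had 538, 508, 409.8, 502 and 274 CPM in Chat+ replicates 1 to 5 and 533, 491, 513, 297 and 292 CPM in Chat- replicates 1 to 5. Replicate 5 was lowest in both groups, and the groups overlapped across their whole range. Dnajc5, the cysteine string protein of vesicle release, had 194 ± 14.4 against 193 ± 13.6 CPM (SD, n = 5), and a fold between 0.88 and 1.15 at 95% confidence. Dnajc9, a histone chaperone, had 127 ± 17.0 against 133 ± 34.3 CPM, and Dnajc13, which acts in endosome sorting, 100.1 ± 20.4 against 105 ± 21.2 CPM.

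Dnajc14 was the 1 gene of the 53 whose Chat+ libraries all lay below the Chat- libraries once Chat- replicate 4 was left out, against 0.941% of all genes, and it is named after its values were seen. It had 91.7 to 129.7 CPM over Chat+ libraries, 130.4 to 146 CPM in the other Chat- libraries and 63.2 CPM in Chat- replicate 4. Without that library the log2 fold change was -0.30 ± 0.12 (SE; limma, adjusted p = 0.56), and with all libraries it was -0.08. Its lowest Chat+ levels, 91.7 and 97.1 CPM, were in replicates 3 and 5, the libraries with many genes at the lowest value. Without all 3 libraries that stood apart, the log2 fold change was -0.13 (limma, adjusted p = 0.767).

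Some class C genes were set by single libraries. Dnajc25 had 4.81 to 10.5 CPM in 9 libraries and 0.481 CPM in Chat- replicate 4, and its log2 fold change of 0.93 was 0.25 without that library. Dnajc17 had 2.28 CPM in Chat- replicate 4 and 4.30 CPM in Chat+ replicate 5, against 8.26 to 12.2 CPM elsewhere. Dnajc12 ranged from 0.325 to 6.07 CPM within Chat-. Dnajc19, part of the motor that pulls proteins into mitochondria, had 11.9 to 21.7 against 17.9 to 26.3 CPM (log2 fold change -0.21 ± 0.19, SE, and -0.06 without Chat+ replicate 5).

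None of the 3 mitochondrial chaperones passed the test. Hspd1 and Hspe1 encode HSP60 and HSP10, the barrel and lid of the mitochondrial folding chamber, and share the 3-unit element shown above. Hspd1 had 151 ± 26.7 CPM in Chat+ against 135 ± 22.3 in Chat-, and Hspe1 83.3 ± 6.83 against 73.4 ± 16.8 CPM (SD, n = 5). Without Chat- replicate 4 the log2 fold change went from 0.16 to 0.047 for Hspd1 and from 0.21 to 0.11 for Hspe1, and for Hspd1 it was 0.068 without Chat+ replicate 4. Hspa9, the mitochondrial HSP70, had 200.1, 184, 169, 203 and 215 CPM in Chat+ replicates 1 to 5 and 191, 196, 187, 94.0 and 192 CPM in Chat- replicates 1 to 5. Chat- replicate 4 lay far below the rest, and the log2 fold change of 0.22 was 0.01 without it. That library had the highest share of transcripts from the mitochondrial genome, 11.87%. Hspd1 shares 50.1% of its 31-base words with other genes.

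Of the genes that begin with Hspb, Hspb6 is the 1 classical small heat shock protein known from muscle. It had 1.47 to 2.71 CPM over Chat+ libraries, 2.33 to 3.23 CPM in 4 Chat- libraries and 5.67 CPM in Chat- replicate 4 (log2 fold change -0.51 ± 0.36, SE). Hspbp1, a nucleotide exchange factor of HSP70, had 36.2 ± 7.16 against 31.4 ± 6.64 CPM (SD, n = 5). Hspb11, a part of the intraflagellar transport machinery, had 12.6 ± 3.14 against 13.2 ± 3.74 CPM, and Hspbap1 17.1 ± 4.51 against 19.2 ± 4.88 CPM.

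**Figure D4:**
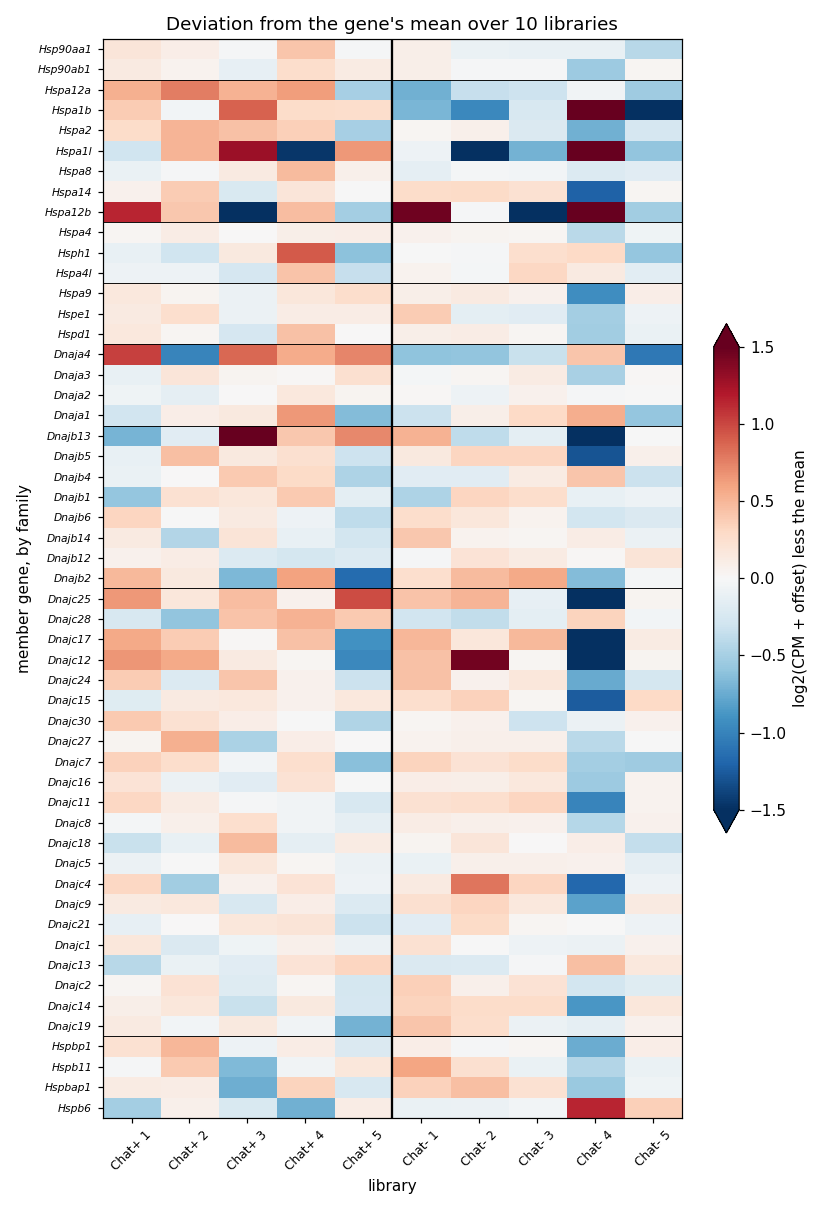
Log2(CPM + offset) of each of the 53 genes in each library less the gene's mean over the 10 libraries, by family; red is above and blue below the mean, and colours end at 1.5 in either direction. Chat- replicate 4 departs most often, in both directions, while Hspa12a is above its mean in 4 of the 5 Chat+ libraries.

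Partner genes were read from fixed lists, in which 0 genes passed over all genes tested. Of all genes, 57% were above 0, with a median log2 fold change of 0.04. The counts of the lists were not repeated without Chat- replicate 4. That library lay far from the other Chat- libraries in either direction, as for Cdc37 (59.9 CPM against 170 to 187) and Ptges3 (231 CPM against 125 to 140). Of 18 genes of HSP90 partners, 15 were above 0 (median log2 fold change 0.07) and 0 had an unadjusted p under 0.05 with all libraries. Without Chat- replicate 4, Ptges3 had an unadjusted p of 0.021 (limma), where 5.36% of all genes were higher at p under 0.05. Of 13 measured exchange and adaptor factors of HSP70, 5 were above 0 (median -0.004), and 1 of the 13, Hspbp1, is also among the 53 genes. Bag3, the exchange factor most closely tied to stress, had only 0.939 to 2.55 CPM. The transcription factor Hsf1 had 53.4 to 70.6 CPM in Chat+ against 56.5 to 79.8 in Chat-.

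The TRiC chaperonin folds actin and tubulin, and prefoldin is its partner. Their list, which also holds Pdcl and Pdcl3, subunits of neither, had 12 of 16 genes above 0, beside 57% of all genes. The median of the list was 0.15. In this list Cct4 had all Chat+ libraries, at 239 to 274 CPM, above all Chat- libraries, at 212 to 224 CPM, as did 1.12% of all genes (log2 fold change 0.21 ± 0.08, SE; limma, adjusted p = 0.97). Of 10 mitochondrial partners, 8 were above 0, beside the same 57% of all genes. The J-domain gene Hscb, which acts in iron-sulphur cluster assembly and whose symbol lies outside the name rule, had 16.2 to 18.6 CPM over Chat+ libraries and 9.52 to 15.3 CPM in Chat-, again without overlap, as for that 1.12% of all genes (log2 fold change 0.50 ± 0.17, SE; limma, adjusted p = 0.83). The 7 endoplasmic reticulum chaperones left out by the rule were all above 0, beside 57% of all genes. Their median was 0.09, and 0 had an unadjusted p under 0.05.

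Immediate early genes, which also respond to handling, were split, with 7 of 15 above 0, beside 57% of all genes. Egr1 had 14.3 to 27.7 CPM over Chat+ libraries and 28.8 to 32.5 CPM in Chat-, and was the 1 gene of the list with all Chat+ libraries below all Chat- libraries, against 0.304% of all genes (log2 fold change -0.53 ± 0.18, SE; limma, adjusted p = 0.82). Fos had 6.20 to 13.0 against 2.26 to 7.11 CPM (log2 fold change 0.77 ± 0.35, SE; limma, adjusted p = 0.999). Among 13 measured genes outside the family that are raised with heat shock, 11 were above 0, beside 57% of all genes. Their median log2 fold change was 0.08. In this list Chordc1, Ahsa1, Stip1, Fkbp4 and Bag3 are also among the HSP90 partners or HSP70 factors above, so these lists are not separate. With all libraries, the 1 gene of that list with an unadjusted p under 0.05 was the metallothionein Mt2, at 0.571 to 1.58 CPM in Chat+ and at most 0.973 CPM in Chat-. Without Chat- replicate 4 its unadjusted p was 0.086 and that of Serpinh1 was 0.017 (limma), where 5.36% of all genes were higher at p under 0.05.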

How the data were processed

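The deposited values are log2 values: per the file, all 10 libraries share the lowest value of -3.1228, and with that offset (0.1148 CPM) removed each library sums to 1000000 CPM. The submitters' processing notes name cutadapt 2.6, Salmon 0.14.2 and GRCm38.p6. Which annotation, strand setting and CPM tool the authors used is not given in the sources used here. Groups and replicate numbers come from the titles, and 0 value columns were left over.

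The log2 values were tested as deposited with limma 3.58.1 in R 4.3.3 (mean-variance trend, group as the only term, two-sided) over all 14450 genes, with Benjamini-Hochberg adjustment and a threshold of 0.05. The test was run on simulated data first. Each fold change is one of log2(CPM + offset), so changes of low genes come out too small, and all 53 members were tested. Symbols (14374 matched) and coordinates are from GENCODE M21. Shared 31-base words and the longest coding transcript of each gene came from its transcripts. CPM per kilobase rests on that length, not on the lengths Salmon used.

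The members, gene lists and tests were chosen with earlier results of these data known. Members given in full were the classical inducible and constitutive genes, the 6 with the smallest p in each direction, the 5 highest per kilobase, the 5 lowest and the 5 with the largest spread among those with a mean of at least 1 CPM, together with up to 3 genes of each other list. Other members were described by role. Alternatives were log2(CPM + 1), a filter of a mean of 1 CPM, median-of-ratios scaling, no trend, library quality weights, a replicate block and leaving out each library. Leaving out the 3 libraries with the most genes at the lowest value was added after seeing the data. Tables were made in Python 3.11.15 (numpy 2.4.6, pandas 2.3.3) and figures in matplotlib 3.10.9.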

Additional observations from a re-analysis of the deposited data

Results flagged for a closer look

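Single libraries far from the others of their group were looked for in the 27 members named by rule, in 54 groups of 5 values. Of these groups 9 were picked out. Chance picks about 1 in 20 of unselected, independent groups, but some of these members were chosen for a large spread or a small p and groups share libraries, so the count cannot be read against that share. In Chat- replicate 4 lay 5 of the 9, all lowest: Hsp90ab1 at 929.7 CPM (1342 to 1443 CPM in the other Chat- libraries), Hspa4 at 175 CPM (221 to 241), Hspa9 at 94.0 CPM (187 to 196), Dnajc17 at 2.28 CPM (8.91 to 11.6) and Dnajc25 at 0.481 CPM (4.81 to 7.56). That library also had the most genes at the lowest value, 1213.

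In Chat+ replicate 5 lay 3, again lowest: Hspa12a at 4.57 CPM (9.46 to 11.2 in the other Chat+ libraries), Hspa2 at 8.64 CPM (14.8 to 17.4) and Dnajc19 at 11.9 CPM (18.8 to 21.7). The last was Dnaja4, at 1.21 CPM in Chat+ replicate 2 (3.75 to 5.23).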

How the results depend on the processing

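Of the 27 members named by rule, 16 kept their direction under all 17 alternatives. Members called over all genes stayed at 0 except with library quality weights, where 1 passed (Hspa12a, named above). Members at an unadjusted p under 0.05 numbered 2, and 1 with median-of-ratios scaling or without the trend, 6 with library quality weights, 4 without the 3 libraries that stood apart, and 1 to 5 when single libraries were left out (5 without Chat- replicate 4). Among all genes 1 passed, against 3 without the trend, 105 with library quality weights, 6 with the replicate block, 17 without the 3 libraries, and 1 to 6 with single libraries left out. The 6 came without Chat+ replicate 5 or Chat- replicate 4. The median log2 fold change of the members was -0.0004 to 0.12 with single libraries left out. Equal replicate numbers correlated at -0.20 to 0.23 in their deviations over all genes and 4 of 10 libraries correlated best with their own number, so pairing by number was not shown over all genes. The replicate block left the members called at 0. It narrowed the SE of Dnaja1 from 0.25 to 0.080 and of Hsph1 from 0.26 to 0.14. That follows from the shared order for which these genes were picked, so it is no test of pairing. For other members the SE went either way, as for Hspb6 (0.36 to 0.41) and Dnajb14 (0.15 to 0.13).

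Log2 fold changes turned sign with library quality weights for Dnaja1 (0.12), Dnajb1 (-0.0777), Dnajc12 (-0.34) and Hspa12b (0.75). With median-of-ratios scaling Dnajb1 (-0.0182) and Hsph1 (-0.0263) turned. Without the 3 libraries that stood apart Dnaja1 (0.28), Dnajb13 (-0.15), Dnajb2 (0.10), Dnajc12 (-0.0722), Hspa12b (0.93) and Hspa4l (0.0446) turned. With single libraries left out the range crossed 0 for Dnaja1 (-0.18 to 0.14), Dnajb1 (-0.0886 to 0.17), Dnajb2 (-0.43 to 0.0197), Dnajc12 (-0.41 to 0.55), Dnajc17 (-0.22 to 0.45), Dnajc7 (-0.041 to 0.25), Hspa12b (-0.72 to 0.27), Hspa1l (-0.0644 to 0.85) and Hsph1 (-0.21 to 0.17). The cause was not tested. Members near 1 CPM rest on few reads, so depth limits them most.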

Other observations

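For the 11 members that share over 10% of their 31-base words with other genes, the gene sharing most was looked up. Of these copies 7 were measured, and 3 of them were highest in Chat- replicate 4. The smallest share was that of Gm6368, with 4.85% of the words of Hsp90ab1. Further copies were not looked up. Gm15459, which holds 38.6% of the 31-base words of Hspa8, had 52.5 CPM there and 2.81 to 15.9 CPM in the other 9 libraries. Hspd1-ps3, with 46.5% of the words of Hspd1, had 22.9 CPM against 0.696 to 7.61 CPM. Gm12346, with 46.7% of the words of Hsp90aa1, had 40.6 CPM against 4.48 to 25.6 CPM. The other 4 lay within the range of the other libraries there, Gm15542 at 58.3 CPM, Gm2541 at 4.69 CPM, Gm6368 at 0.161 CPM and a copy of Hspe1 at 0 CPM. The parent genes were not high there, at 1407 CPM for Hspa8, 98.0 CPM for Hspd1 and 395 CPM for Hsp90aa1.

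The Dnaja1 copy Gm15542, with 11.2% of its words, had its highest level, 115 CPM, in Chat+ replicate 4, as Dnaja1 did. Within Chat- its highest level, 78.2 CPM, was in replicate 3, where Dnaja1 was highest in replicate 4. Reads shared between a gene and its copy were divided by the quantification, and how they were divided was not tested.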
